A study of Homo sapiens with 12 samples.

Results

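The metallothioneins described here are the 6 genes MT1E, MT1F, MT1G, MT1M, MT1X and MT2A, taken by gene name from tables of 60106 genes. All 6 were present once in each table. RNA was sequenced from 12 libraries of 2 established human prostate cancer cell lines, in 4 groups of 3 replicates. PC3 is an androgen-independent prostate cancer line, and VCaP is an androgen-responsive line that carries a TMPRSS2-ERG fusion. Each line received a non-targeting siRNA (NSI) or an siRNA against FOXA1 (siFOXA1), a pioneer transcription factor of the prostate epithelium, by RNAiMax transfection, and RNA was taken after 72 hours. PC3 cells grew in RPMI-1640, received 20 nM siRNA and gave polyA RNA for TruSeq stranded mRNA libraries. VCaP cells grew in DMEM, received 40 nM and gave total RNA for TruSeq total RNA libraries. Line, dose, medium and library kit therefore cannot be told apart. The labels do not say whether replicates were separate cultures, so each p-value measures only the spread between these samples.

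Metallothioneins are small, cysteine-rich proteins that bind zinc and copper and take up toxic metals such as cadmium. Their genes are switched on by the zinc sensor MTF1, which binds metal response elements in their promoters. Glucocorticoids, oxidative stress and interferon can also induce members of the family. Prostate epithelium is known for its high zinc content, and zinc bound to metallothionein is one of the cell's exchangeable stores.

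The 6 genes lay within a cluster of the family on chromosome 16, which spanned positions 56598961 to 56718108 of GRCh37 (119148 bases) and held 15 family rows of the tables. From left to right the 6 members were MT2A (ENSG00000125148, 56642111 to 56643409), MT1E (ENSG00000169715, 56659387 to 56661024), MT1M (ENSG00000205364, 56666145 to 56667898), MT1F (ENSG00000198417, 56691606 to 56693217), MT1G (ENSG00000125144, 56700643 to 56701977) and MT1X (ENSG00000187193, 56716336 to 56718108). MT1G was on the minus strand and the other 5 were on the plus strand.

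RefSeq promoter sequence (build GRCh38.p14) was matched for MT1X and MT2A, 2 of the 6 members. They are shown because no such sequence was available here for the other members. MT2A had the highest length-scaled level of the 6 in PC3 control cells, and both were among the 3 highest in VCaP control cells. Each line gives the 250 bases before the RefSeq start, 5′ to 3′ on the plus strand, and the same letters were found in GRCh37 at chr16:56716132-56716381 for MT1X and chr16:56642246-56642495 for MT2A. Both windows overlap the counted rows: the MT2A row begins at 56642111 and holds its whole window, and the MT1X row begins at 56716336, before its window ends. Capitals mark the metal response core, searched as TGCACNC or TGCGCNC on both strands.
MT1X: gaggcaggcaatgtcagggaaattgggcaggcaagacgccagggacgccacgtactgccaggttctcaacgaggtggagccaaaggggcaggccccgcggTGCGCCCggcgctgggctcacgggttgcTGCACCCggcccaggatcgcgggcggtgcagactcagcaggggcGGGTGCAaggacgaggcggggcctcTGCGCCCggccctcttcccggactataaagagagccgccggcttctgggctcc
MT2A: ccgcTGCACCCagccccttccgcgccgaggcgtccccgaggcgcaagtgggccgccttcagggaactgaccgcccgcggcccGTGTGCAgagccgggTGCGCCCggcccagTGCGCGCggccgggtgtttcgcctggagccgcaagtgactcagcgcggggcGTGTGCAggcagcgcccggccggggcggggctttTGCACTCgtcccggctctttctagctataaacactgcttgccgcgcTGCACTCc
The MT1X window held 4 such cores and the MT2A window held 7. Of 35116 RefSeq promoter windows of this length, 24.8% held at least 1 core, 0.370% held at least 4 and 0.0313% held at least 7. The forkhead words TGTTTAC and TGTTTGC, searched on both strands, had no match in either window, against 6.09% of all windows with at least 1. Other forkhead words were not searched. The MT2A window holds TGTTTAT on its minus strand, 1 letter from TGTTTAC, which this search did not count. A match describes letters, not binding.

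The siRNA target was checked first. In PC3, FOXA1 was at 303, 244 and 266 CPM (counts scaled to a common library size) in NSI against 163, 182 and 161.9 CPM in siFOXA1, a ratio of means of 0.623 (log2 fold change −0.68, SE 0.10, adjusted p = 0.00220). In VCaP it was at 458, 468 and 544 CPM in NSI against 85.2, 73.6 and 83.0 CPM in siFOXA1, a ratio of 0.165 (log2 fold change −2.60, SE 0.09, adjusted p = 1.84e-07). Library totals were 123140099 to 188226483 counts in PC3 and 48187047 to 59839211 in VCaP. KLK3, the androgen-regulated prostate-specific antigen, averaged 0.00639 CPM in PC3 NSI and 69.4 CPM in VCaP NSI, and VIM, a mesenchymal filament gene, averaged 747.5 and 0.260 CPM, so these markers matched both labels. The leukocyte marker PTPRC stayed at or below 0.12 CPM in all 12 libraries. The fibroblast marker COL1A1 was at 19.8 to 22.8 CPM in PC3 NSI, 29.8 to 33.2 CPM in PC3 siFOXA1 and 0.357 to 3.69 CPM in VCaP; its part in the results was not tested.

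A pair of PC3 libraries stood apart in this gene family. The pseudogene MT1L had 452.4 counts in PC3 NSI replicate 2 and 635.2 counts in PC3 siFOXA1 replicate 3, and 0.5 to 3.79 counts in the other 4 PC3 libraries. MT1A followed the same pattern, with 12.7 and 15.5 counts in those libraries and 0.14 to 5.25 in the others. MT1M was also highest there, with 17.8 and 37.3 counts. The results for PC3 are therefore given with and without these libraries, a choice made after seeing the data.

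In NSI cells the lines differed in the metallothioneins they expressed most. Scaled to exon length, MT2A, the main widely expressed isoform, led in PC3 with 298 ± 34.9 CPM per kb (SD, n = 3). MT1X followed at 27.5 ± 5.09, MT1F at 4.54 ± 0.407, MT1G at 0.257 ± 0.0571 and MT1M at 0.0921 ± 0.0540 CPM per kb. MT1E was nearly absent from PC3, with 2, 0 and 1.71 counts in NSI against 0, 0 and 1 in siFOXA1. At this depth 3 counts equal 0.0164 to 0.0238 CPM, so MT1E was at or under what a count of 0 allows. From MT2A down to MT1M, the library ranges of neighbours in this PC3 order did not overlap.

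In VCaP NSI, MT1X was at 5.09 ± 0.874, MT2A at 3.97 ± 0.588 and MT1E at 3.84 ± 0.336 CPM per kb (SD, n = 3). MT1X was above MT2A in each of the 3 libraries, although their ranges overlapped, and above MT1E without overlap. Without the length scaling, MT1X (3.58, 4.001 and 4.98 CPM) and MT1E (3.64, 4.14 and 4.32 CPM) overlapped, so their order depends on that scaling. The ranges of MT2A and MT1E overlapped, so the order of this pair is not resolved. MT1F lay lower, at 1.61 ± 0.474 CPM per kb, and MT1G at 0.157 ± 0.0272. MT1M had 0.5 count in 1 of the 3 NSI libraries and none in the others. MT2A in NSI cells averaged 75.1 times as many CPM in PC3 as in VCaP, a ratio that also spans the change of kit and strand setting.

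**Figure D1:**
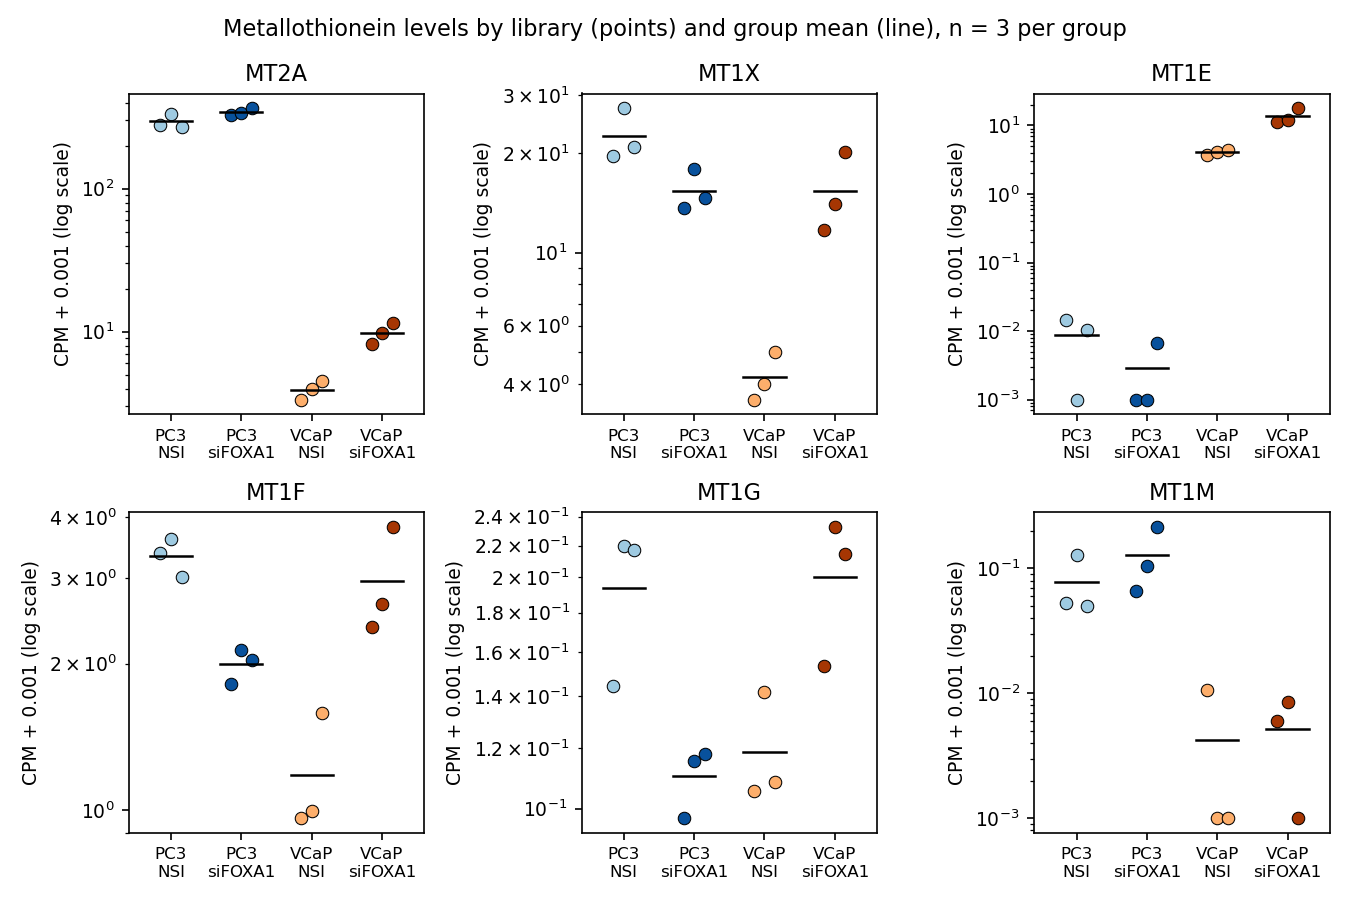
Level of each metallothionein in CPM plus 0.001 on a log axis, for the 3 libraries of each of the 4 groups (points) and their mean (line); each panel has its own scale. MT2A is at 271 to 366 CPM in the PC3 libraries, and MT1E is at or near 0 in PC3 and at 3.64 to 17.9 CPM in VCaP.

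In VCaP, metallothionein transcripts rose after the FOXA1 siRNA. All 4 members with enough counts to be tested rose: MT1X, MT1E, MT2A and MT1F, with ratios of means from 2.50 to 3.66. None fell by edgeR, at an unadjusted p under 0.05 or by DESeq2. Of all 22939 genes tested in VCaP, 22.5% rose and 23.3% fell. The median log2 fold change of the 4 members was 1.55, against 0.02 for all genes tested. The share of counts from mitochondrial genes, a sign of RNA quality, moved with the same contrast: it was 3.28%, 3.29% and 3.02% in VCaP NSI against 4.04%, 4.16% and 4.69% in siFOXA1, without overlap and highest in siFOXA1 replicate 3, which was also highest in MT1X, MT1E, MT2A and MT1F. Its part in the results was not tested. In these bulk samples, a change in the number of expressing cells and a change in RNA per cell cannot be told apart.

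MT1X, a member of the metal-inducible MT1 group, was at 3.58, 4.001 and 4.98 CPM in VCaP NSI against 11.7, 14.0 and 20.2 CPM in siFOXA1. The groups did not overlap, and siFOXA1 replicate 3 was the highest library. MT1X rose by 1.87 on the log2 scale (SE 0.20, adjusted p = 7.18e-05). Reads of this row and of RP11-343H19.2 cannot be fully told apart, because RP11-343H19.2 covers 39% of the MT1X exon bases on the same strand. RP11-343H19.2 itself rose by 1.81 on the log2 scale (adjusted p = 9.45e-05).

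MT1E, nearly absent from PC3, was at 3.64, 4.14 and 4.32 CPM in VCaP NSI against 11.4, 12.1 and 17.9 CPM in siFOXA1. Every siFOXA1 library was above every NSI library. It rose by 1.77 on the log2 scale (SE 0.17, adjusted p = 3.78e-05). MT2A was at 3.34, 3.95 and 4.51 CPM in NSI against 8.22, 9.79 and 11.6 CPM in siFOXA1, again without overlap. The rise of MT2A was 1.32 on the log2 scale (SE 0.15, adjusted p = 9.87e-05).

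MT1F, another MT1 isoform, was at 0.963, 0.996 and 1.58 CPM in VCaP NSI against 2.38, 2.65 and 3.82 CPM in siFOXA1. The groups did not overlap, although NSI replicate 3 and siFOXA1 replicate 3 were each the highest of their group. MT1F rose by 1.31 on the log2 scale (SE 0.24, adjusted p = 0.00178). Among all genes tested in VCaP, 2.94% had a larger log2 fold change than MT1X, 3.24% than MT1E, 5.23% than MT2A and 5.31% than MT1F.

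MT1G and MT1M were under the filter on low counts in VCaP and were not tested there. MT1G had 5.42, 7.08 and 6.17 counts in NSI against 7.67, 11.7 and 11.2 counts in siFOXA1, which did not overlap. MT1M had at most 0.5 count in any VCaP library.

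In PC3, where FOXA1 RNA fell less, the members did not move together. MT1F and MT1X fell, and MT2A, MT1G and MT1M did not pass the test. Of 5 members tested, 0 rose and 2 fell by edgeR, against 13.9% of all 26478 genes tested that rose and 13.9% that fell. At an unadjusted p under 0.05, 0 were higher and 3 lower, and DESeq2 called 0 higher and 2 lower. Shares of all genes are given here only for adjusted edgeR calls, so these other counts cannot be set against a background. Without the 2 libraries that stood apart, 1 member was called higher (MT2A) and 1 lower (MT1F). The median log2 fold change of the 5 was −0.56, against −0.01 for all genes tested.

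MT1F was at 3.37, 3.61 and 3.01 CPM in PC3 NSI against 1.82, 2.13 and 2.04 CPM in siFOXA1. The groups did not overlap, and siFOXA1 was lower. MT1F fell by 0.74 on the log2 scale (SE 0.13, adjusted p = 0.00441). Without the 2 libraries that stood apart its change was −0.67 (adjusted p = 0.0175).

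MT1X was at 19.6, 27.4 and 20.8 CPM in PC3 NSI against 13.6, 17.9 and 14.7 CPM in siFOXA1. The groups did not overlap, but NSI replicate 2, one of the libraries that stood apart, was well above the rest. MT1X fell by 0.56 on the log2 scale (SE 0.15, adjusted p = 0.0264). Without both libraries that stood apart the change was −0.34 and was no longer called (adjusted p = 0.0915). It was also lost without any 1 of NSI replicates 2 and 3 and siFOXA1 replicates 1 and 3, with adjusted p between 0.0517 and 0.145. RP11-343H19.2, which shares exon bases with MT1X, fell by 0.59 on the log2 scale (adjusted p = 0.00692), a call lost without siFOXA1 replicate 1 (adjusted p = 0.0582).

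MT2A was at 280.3, 335 and 271 CPM in PC3 NSI against 330.1, 338 and 366 CPM in siFOXA1. The groups overlapped through NSI replicate 2. MT2A was higher by 0.22 on the log2 scale, with SE 0.10, and was not called (adjusted p = 0.144). Without NSI replicate 2 it was 0.37 and was called (adjusted p = 0.0130), and without both libraries that stood apart it was 0.30 (adjusted p = 0.0442).

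MT1G, a minus-strand member of the cluster, had 21.2, 30.5 and 39.4 counts in PC3 NSI against 16.1, 14.4 and 20.3 counts in siFOXA1. In CPM the groups did not overlap, at 0.193 ± 0.0428 and 0.109 ± 0.0113 (SD, n = 3). Its log2 value of −0.84 had SE 0.32 and was not called (adjusted p = 0.0800), and of 15 alternatives it passed in 1, the fit over all 12 libraries (adjusted p = 0.0462). MT1M had 7.67, 17.8 and 8.96 counts in NSI against 11, 13 and 37.3 counts in siFOXA1. Its log2 value was 0.75 with SE 0.56 (adjusted p = 0.353). Without the 2 libraries that stood apart, MT1G was at −0.78 (adjusted p = 0.233) and MT1M at 0.70 (adjusted p = 0.407). Left out one at a time, these libraries moved MT1M in opposite ways, to 1.35 without NSI replicate 2 (adjusted p = 0.133) and to 0.13 without siFOXA1 replicate 3 (adjusted p = 0.906).

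The difference between the lines, the VCaP effect minus the PC3 effect, was tested as an interaction in 1 fit over all 12 libraries, so its values differ slightly from a subtraction of the separate fits of each line. Of 5 members tested, 4 had a positive difference and 0 a negative one by edgeR; DESeq2 gave 4 and 0, with MT1E in place of MT1G, and an unadjusted p under 0.05 gave 5 and 0. Of all 30450 genes tested, 11.1% had a positive and 11.1% a negative difference by edgeR at an adjusted p under 0.05. Shares by the other criteria are not given here. The median over the 5 members was 2.04 on the log2 scale, against 0.05 for all genes. MT1X differed by 2.41 (SE 0.27, adjusted p = 1.14e-05), MT1F by 2.04 (SE 0.29, adjusted p = 0.000115), MT1G by 1.66 (SE 0.48, adjusted p = 0.0204) and MT2A by 1.08 (SE 0.19, adjusted p = 0.000684). The MT1G call was lost without any 1 of PC3 siFOXA1 replicate 1, VCaP NSI replicates 1 and 3, and VCaP siFOXA1 replicates 2 and 3, with adjusted p between 0.0511 and 0.0727. MT1E differed by 3.31 (SE 1.31, adjusted p = 0.0875), a value that rests on PC3 counts of 0 to 2 and so depends on the prior count of the fit. Blocking on the replicate number, MT1E was called (adjusted p = 0.0487). It was also called without PC3 NSI replicate 2 (3.71, adjusted p = 0.0460) and without both libraries that stood apart (5.10, adjusted p = 0.0375). In that last setting all 5 tested members, MT1E among them, had a positive difference. Every call of MT1E rests on the same few PC3 counts. MT1E was under the filter in PC3, so these calls cannot show how it responded there.

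**Figure D2:**
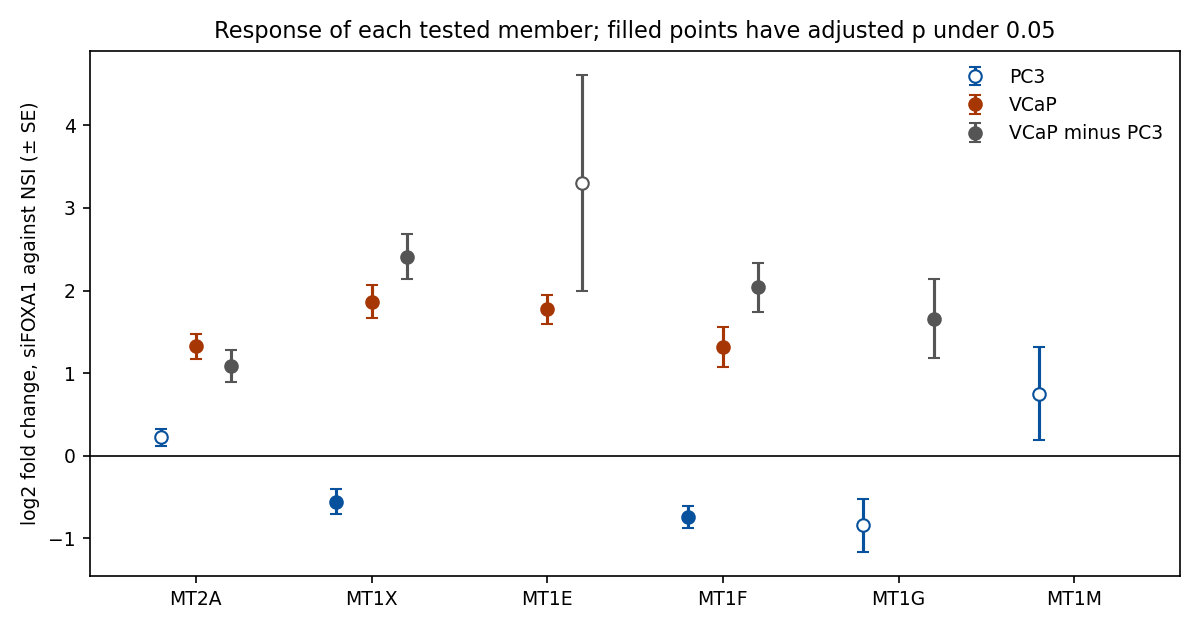
Log2 fold change of siFOXA1 against NSI for each tested metallothionein in PC3, in VCaP and as the VCaP minus PC3 difference, with bars of 1 SE; filled points have an adjusted p under 0.05. The 4 VCaP points lie between 1.31 and 1.87, and the filled PC3 points, MT1X and MT1F, lie at −0.56 and −0.74.

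Summed over the 6 members, PC3 had 303, 367 and 295 CPM in NSI against 346, 358 and 383 CPM in siFOXA1. The groups overlapped, and the ratio of means was 1.13. VCaP had 11.6, 13.2 and 15.5 CPM in NSI against 33.8, 38.8 and 53.7 CPM in siFOXA1, without overlap and with a ratio of 3.13. In PC3 the sum was mostly MT2A.

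The makeup of the sum also shifted. MT2A made up 91.9% ± 0.459 of the members' CPM in PC3 NSI and 95.1% ± 0.679 in siFOXA1 (SD, n = 3), while MT1X went from 7.00% ± 0.509 to 4.25% ± 0.646. In VCaP, MT2A went the other way, from 29.2% ± 0.577 to 23.7% ± 1.89, and MT1X from 31.04% ± 0.986 to 36.1% ± 1.48. MT1E made up 30.2% ± 1.97 in VCaP NSI and 32.7% ± 1.31 in siFOXA1, with library ranges that overlapped. The library ranges of MT2A and of MT1X did not overlap between NSI and siFOXA1 in either line.

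**Figure D3:**
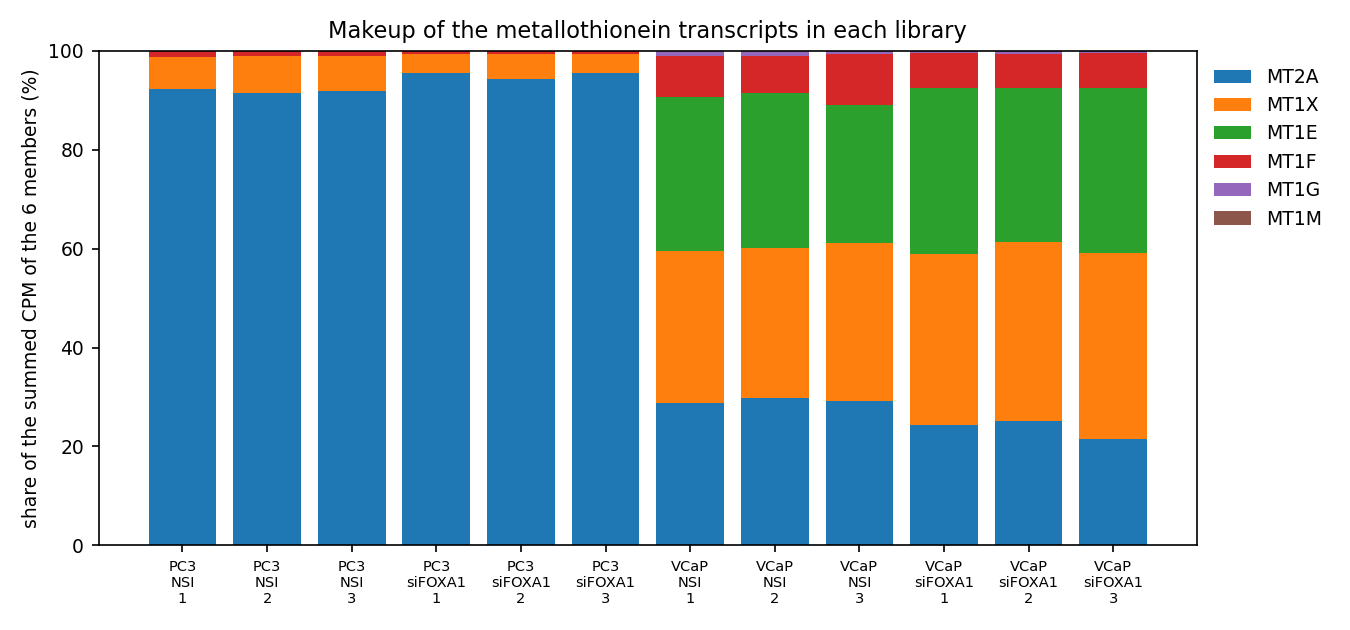
Share of each metallothionein in the summed CPM of the 6 members, in percent, as stacked bars for each of the 12 libraries. MT2A fills at least 91.4% of every PC3 bar, and VCaP bars are split mainly among MT2A, MT1X and MT1E.

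Paralogues in this family are alike, and the deposited counts divided a fragment that mapped to several places. In GRCh37, 15.03% of the 50-base windows of MT1G exons occurred exactly elsewhere in the genome, 14.0% of MT1E, 10.3% of MT1M, 4.82% of MT2A, 4.44% of MT1X and 0.170% of MT1F. MT1F, with the fewest shared windows, was called in both lines, lower in PC3 and higher in VCaP. The part of divided fragments in the calls of any member was not tested. The read length was not given in the sources used here, so the share of divided fragments is not known. MT1G, MT1E and MT1M had the largest shares of such windows. Fragments over overlapping rows were divided too, and RP11-343H19.2 covers 39% of the MT1X exon bases on the same strand. Which member's values are the least certain was therefore not settled.

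Of 12 other rows of the family in the tables, 2 were tested in each line. MT1P3, a processed pseudogene on chromosome 20, rose in PC3 from 0.121, 0.232 and 0.160 CPM to 0.462, 0.441 and 0.386 CPM (log2 fold change 1.35, SE 0.28, adjusted p = 0.00851), and by 1.70, still called, without the libraries that stood apart. MT1P3 shares 29.7% of its 50-base windows with other places in the genome. MT1P1, a processed pseudogene on chromosome 9, had a log2 fold change of −0.12 in PC3 (adjusted p = 0.843) and 0.32 without the libraries that stood apart. In VCaP, MT1L had a log2 fold change of 0.59 (adjusted p = 0.256), and MT3, the isoform best known from brain, had 0.65 (SE 0.30, adjusted p = 0.105). Without VCaP siFOXA1 replicate 1, MT3 was called (adjusted p = 0.0302).

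Genes in and around the cluster, outside the family, were called in both directions. Of 39 other rows within 500000 bases of it, 21 were tested in PC3, where 4 rose and 4 fell, and 15 in VCaP, where 5 rose and 3 fell. Among all genes tested, 13.9% rose and 13.9% fell in PC3, and 22.5% rose and 23.3% fell in VCaP. With the replicate number as a block, 4 were higher and 8 lower in PC3, where 19.7% of all genes then rose and 23.1% fell. DESeq2 gave 4 and 6, for which no share of all genes is given here. The median log2 fold change was −0.15 in PC3 and −0.02 in VCaP. BBS2, the nearest tested gene on the left and a component of the ciliary BBSome, rose in VCaP by 0.45 on the log2 scale (adjusted p = 0.000260) and had 0.12 in PC3 (adjusted p = 0.314). NUP93, a nuclear pore gene and the nearest on the right, fell in PC3 by 0.33 on the log2 scale (adjusted p = 0.0199) and had −0.02 in VCaP (adjusted p = 0.758). NUP93 was no longer called in PC3 when NSI replicate 1, siFOXA1 replicate 1, siFOXA1 replicate 3 or both libraries that stood apart were left out, with adjusted p up to 0.132. The other rows called in PC3, named after their values were seen, were RP11-249C24.10, CETP, NLRC5 and RP11-322D14.2 (higher) and NUDT21, RP11-343H19.2 and CPNE2 (lower). In VCaP they were RP11-343H19.2, HERPUD1, CPNE2 and RP11-407G23.5 (higher), and the lower ones included NUDT21 and OGFOD1.

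**Figure D4:**
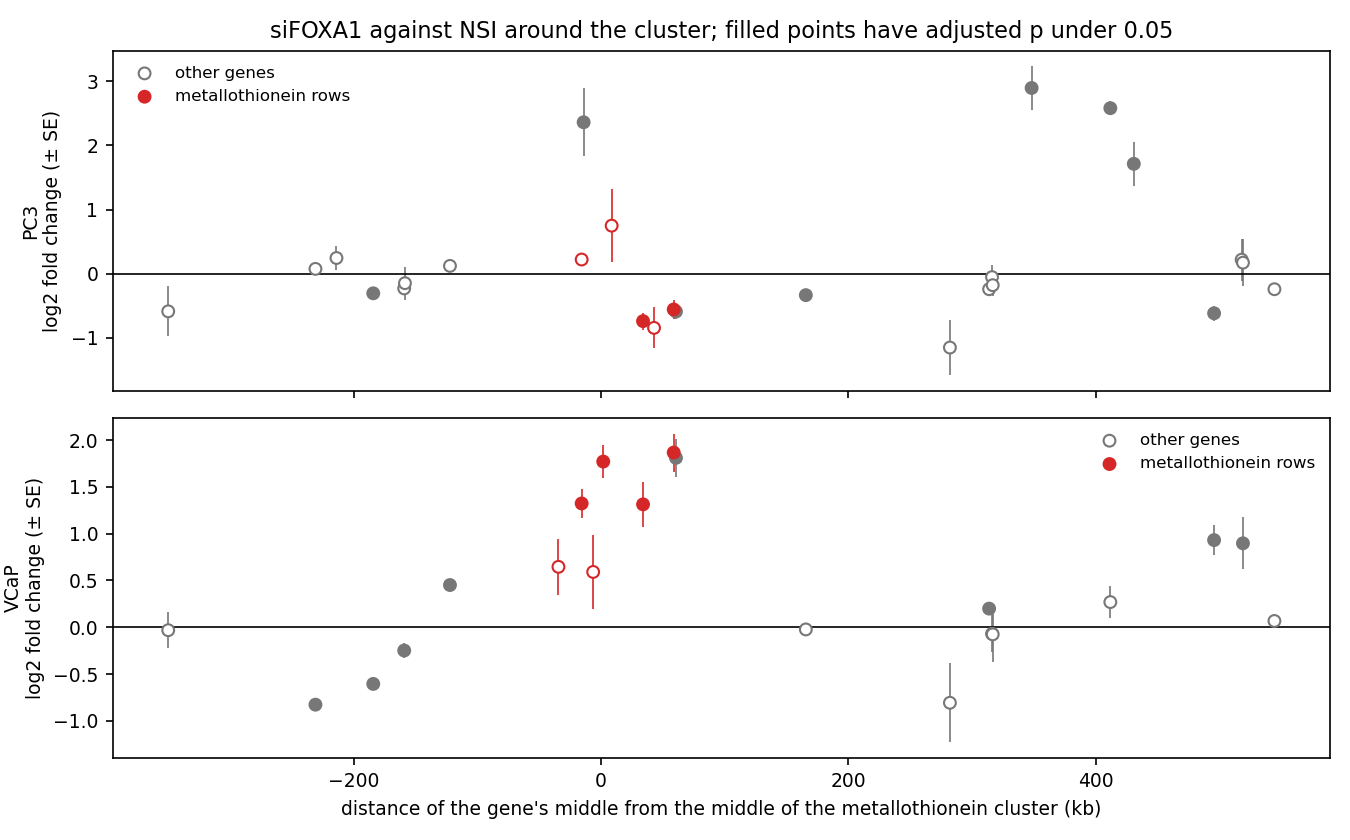
Log2 fold change of siFOXA1 against NSI, with bars of 1 SE, against the distance in kb of each gene's middle from the middle of the metallothionein cluster, for PC3 (top) and VCaP (bottom); filled points have an adjusted p under 0.05. In VCaP the filled metallothionein points sit at 1.31 to 1.87, and BBS2 and NUP93, the nearest genes outside, sit at 0.45 and −0.02.

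Other genes of metal handling were taken from lists. MTF1, the zinc-sensing activator of the family, was at 24.3, 22.2 and 24.1 CPM in VCaP NSI against 26.8, 26.7 and 30.9 CPM in siFOXA1 (log2 fold change 0.26, SE 0.08, adjusted p = 0.0189). That call was lost without NSI replicate 2, without siFOXA1 replicate 3 and in the fit over all 12 libraries, with adjusted p up to 0.105. In PC3 its log2 fold change was −0.08 (adjusted p = 0.713), and it turned to 0.02 with library size alone as the scaling.

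SLC30A1 (ZnT1), the zinc exporter of the plasma membrane and itself a known MTF1 target, was at 25.1, 33.2 and 33.0 CPM in VCaP NSI against 53.0, 57.1 and 74.7 CPM in siFOXA1. The groups did not overlap, and SLC30A1 rose by 1.02 on the log2 scale (SE 0.14, adjusted p = 0.000340). In PC3 it was −0.06 (SE 0.16, adjusted p = 0.810), with a sign that changed with the scaling. The difference between the lines was 1.06 (SE 0.23, adjusted p = 0.00395).

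Of the SLC30 zinc exporters, 9 were tested in VCaP, where 3 rose and 4 fell, with a median log2 fold change of −0.20. Among all genes tested, 22.5% rose and 23.3% fell in VCaP, and 13.9% rose and 13.9% fell in PC3. SLC30A2 (ZnT2), a vesicular exporter, rose from 6.71 ± 1.57 to 50.6 ± 0.796 CPM (SD, n = 3; log2 fold change 2.92, adjusted p = 4.64e-07). SLC30A4 (ZnT4), also vesicular, fell in VCaP by 1.54 on the log2 scale (adjusted p = 2.57e-06). In PC3, 7 were tested and 1 rose, SLC30A4, by 0.92 (adjusted p = 0.0158), a call lost without NSI replicate 3 or siFOXA1 replicate 1 (adjusted p up to 0.0667). The median of the exporters tested in PC3 was −0.06.

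Of the SLC39 zinc importers, 12 were tested in VCaP, where 3 rose and 3 fell, with a median of −0.11. These counts were near the shares of all genes tested in VCaP, of which 22.5% rose and 23.3% fell. In PC3 those shares were 13.9% and 13.9%. SLC39A6 (LIV-1), an importer known for its estrogen regulation in breast cancer cells, was at 489, 488 and 535 CPM in NSI against 66.2, 53.2 and 55.2 CPM in siFOXA1. It fell by 3.11 on the log2 scale (SE 0.10, adjusted p = 9.82e-08). SLC39A2, a low-level importer, rose by 1.40 (adjusted p = 0.00651) from 0.492 ± 0.251 to 1.32 ± 0.285 CPM (SD, n = 3). In PC3, 13 importers were tested, 0 rose and 1 fell (SLC39A4, by 0.80 on the log2 scale, adjusted p = 0.0152, named after its value was seen), with a median of −0.14. At an unadjusted p under 0.05, 1 importer was higher there and 3 were lower, and DESeq2 called 0 higher and 1 lower. No share of all genes is given here for these criteria.

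Of 11 copper-handling genes, 4 rose and 3 fell in VCaP, with a median of −0.03. The shares of all genes tested were 22.5% higher and 23.3% lower in VCaP, and 13.9% and 13.9% in PC3. ATOX1, the copper chaperone to the secretory pathway, was at 13.1, 13.7 and 11.3 CPM in NSI against 29.1, 31.6 and 33.4 CPM in siFOXA1 (log2 fold change 1.30, SE 0.09, adjusted p = 3.81e-06). In PC3 edgeR called 0 of the 11, with a median of −0.07. At an unadjusted p under 0.05 there were 2, and DESeq2 called 1, with no share of all genes given for these criteria. ATOX1 had a log2 fold change of −0.19 there (adjusted p = 0.367).

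What a replicate number shares is not known. Blocking on it moved the PC3 counts of these lists, on a background in which 19.7% of all genes rose and 23.1% fell. The blocked counts were 2 importers higher and 2 lower, 1 exporter higher and 1 lower, and 1 copper gene higher and 3 lower, with ATOX1 among the lower ones (adjusted p = 0.0335). No call of a metallothionein in PC3 changed with the block.

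Lists of other known inducers of metallothioneins are given as values, and their part in the metallothionein results was not tested. For comparison, 22.5% of all genes tested rose and 23.3% fell in VCaP, and 13.9% rose and 13.9% fell in PC3. In VCaP, 5 of 10 glucocorticoid and androgen genes rose and 0 fell, with a median log2 fold change of 0.20; at an unadjusted p under 0.05, 0 fell, and DESeq2 called 0 lower. In PC3, 2 of 9 rose and 4 fell, with a median of −0.32. FKBP5, a co-chaperone induced by glucocorticoids and androgens, rose in VCaP by 1.49 (adjusted p = 4.47e-07) and fell in PC3 by 0.55 on the log2 scale (adjusted p = 0.00371). TSC22D3 (GILZ), a glucocorticoid target, had −0.15 in VCaP (adjusted p = 0.371) and −0.32 in PC3 (adjusted p = 0.0705, and 0.00224 with the block), and was called there without siFOXA1 replicate 2. NR3C1, the glucocorticoid receptor, rose in VCaP by 0.30 (adjusted p = 0.0112) and had −0.12 in PC3 (adjusted p = 0.539). Leaving out either NSI or siFOXA1 replicate 1 ended the VCaP call of NR3C1 (adjusted p up to 0.0549).

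Among 10 oxidative stress genes, 7 rose and 1 fell in VCaP, with a median of 0.65. In PC3, 2 rose and 1 fell, with a median of 0.00, or 4 and 2 with the block. HMOX1, heme oxygenase, was at 0.424, 0.438 and 0.487 CPM in VCaP NSI against 13.3, 15.3 and 23.3 CPM in siFOXA1. It rose by 5.26 (SE 0.26, adjusted p = 6.69e-07) and in PC3 by 1.87 (SE 0.15, adjusted p = 6.47e-05). GCLM, a subunit of the glutathione-making enzyme, rose in both lines, by 0.58 in VCaP (adjusted p = 3.43e-05) and 0.67 in PC3 (adjusted p = 0.00465). Where HMOX1 rose in PC3, MT1F and MT1X fell, and MT2A, MT1G and MT1M were not called. A link between these changes was not tested.

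All 12 genes of the interferon core list rose in PC3, with a median log2 fold change of 3.31. In VCaP, 9 of the 12 rose and 1 fell, with a median of 0.89. The difference between the lines was negative for all 12 interferon genes and positive for the 4 metallothioneins that were called. Whether the interferon genes and the metallothioneins were linked was not tested, and dose, medium and kit differed with the line.

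**Figure D5:**
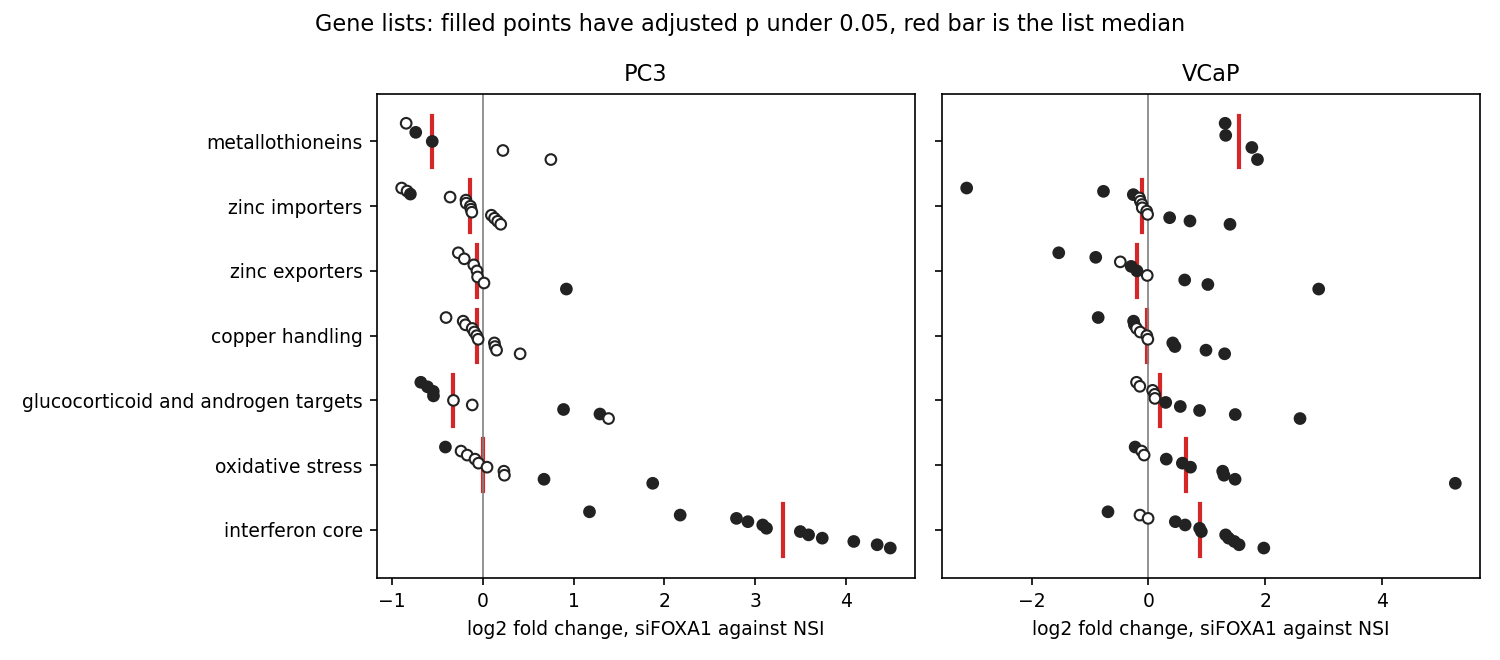
Log2 fold change of siFOXA1 against NSI for each tested gene (points) of the metallothioneins and 6 lists, in PC3 (left) and VCaP (right); filled points have an adjusted p under 0.05 and the red bar is the list's median. The metallothionein median is −0.56 in PC3 and 1.55 in VCaP, and the interferon median is 3.31 and 0.89.

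The genes whose pattern was most like the metallothioneins were sought among 9878 genes with at least 5 CPM in both lines. The profile was the mean of MT1F, MT1X and MT2A, the members tested in both lines, centred within each line over 12 libraries. It used log2 of CPM plus 0.5, which shrinks changes at low levels such as MT1F in VCaP NSI (0.963 to 1.58 CPM). In PC3 it averaged MT1F (−0.74) and MT1X (−0.56) with MT2A (0.22, not called), so it is the pattern of no single member there. The closest was VOPP1, with a root mean square distance of 0.129 on the log2 scale, followed by CAMKK1 (0.138), TDP1 (0.142), FBXO10 (0.150) and PIM1 (0.152). A flat profile would lie 0.513 away. The log2 fold change of VOPP1 was 1.06 in VCaP and −0.27 in PC3, and that of PIM1, a survival kinase, was 1.14 and −0.19. These values were set by the choice on the profile and are a description, with no test.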

How the data were processed

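The deposited values were gene-level estimated counts (expected counts). The authors produced 1 table for each library, per the file headers, with featureCounts of Subread 2.0.0 on the GENCODE v28lift37 basic annotation of GRCh37, from fragments with both ends mapped. Per the file headers, multi-mapping and multi-overlapping fragments were divided among features, strand was ignored in PC3 and reverse-strand counting was used in VCaP. Per the submitters' processing notes, STAR 2.7.3a was used. The gene ends in the tables fitted GRCh37.

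Counts were rounded to whole numbers. The 6 libraries of a line were fitted together in edgeR 4.0.16 (R 4.3.3): filterByExpr, TMM factors (0.956 to 1.04) and a two-sided quasi-likelihood test, adjusted by Benjamini-Hochberg over all genes tested, with a call at an adjusted p under 0.05. For the difference between lines, the interaction was tested over 12 libraries. SE was the log2 fold change divided by the square root of F. CPM used the TMM factors of each line. Coefficients of variation were 14.9% in PC3 and 9.89% in VCaP. The fits were tested on simulated data. Alternatives were other scalings, no filter, unrounded counts, DESeq2 1.42.0, a replicate block, a joint fit and leaving out each library.

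The replicate numbers come from the titles, which do not say what a number shares. For PC3 replicates 1 to 3, deviations of same-numbered libraries correlated at 0.411, 0.569 and 0.206. Differently numbered ones averaged −0.107, −0.403 and −0.0342. In VCaP the values were 0.0924, 0.0361 and 0.350 for the same number, against −0.0206, 0.0016 and −0.212. The main fits left the numbers out, and the block was an alternative in both lines. The members and the gene lists were chosen with earlier results of these data known. Named genes were FOXA1, the members, tested family rows, MTF1, SLC30A1, zinc and copper genes called with a log2 fold change of at least 1 in size, 5 inducer-list genes, the nearest neighbours and the 5 genes of most similar pattern. Some markers and 1 neighbouring gene are not reported here.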

Additional observations from a re-analysis of the deposited data

Results flagged for a closer look

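The effect of the FOXA1 siRNA differed between the lines for 4 metallothioneins, by the edgeR interaction test. In that fit over all 12 libraries the difference was 2.41 for MT1X, 2.04 for MT1F and 1.08 for MT2A. The separate fits gave −0.56 in PC3 and 1.87 in VCaP for MT1X, −0.74 and 1.31 for MT1F, and 0.22 and 1.32 for MT2A. Their subtraction would differ slightly from the interaction. For MT1G the interaction value was 1.66, and MT1G was tested alone only in PC3 (−0.84). FOXA1 itself fell further in VCaP, with a difference of −1.94 (adjusted p = 2.98e-07), and dose, medium and kit differed with the line, so these cannot be told apart.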

How the results depend on the processing

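In VCaP the count of called members was 4 in all 14 alternatives. In PC3 it was 2, became 1 with library size alone as the scaling (MT1X lost) and 3 in the fit over all 12 libraries (MT1G added), and ranged from 1 to 2 when each library was left out. For the difference between the lines it was 4, ranged from 3 to 5 over the libraries left out, and was 5 with the replicate block (MT1E added) and 3 with no filter (MT1G lost). The block also raised the shares of all genes called. In VCaP 22.5% rose and 23.3% fell, against 25.2% and 24.8% with the block. In PC3 13.9% rose and 13.9% fell, against 19.7% and 23.1%. For the difference, 11.1% were positive and 11.1% negative, against 15% and 14%. Shares under the other alternatives are not given here. MT1F kept its call in PC3 in all 15 alternatives, with adjusted p from 1.08e-05 to 0.0399. The MT1G difference was lost in 7 of 20 alternatives (adjusted p up to 0.0727). Under the replicate block MT3 was called in VCaP (adjusted p = 0.0310), and the calls of the 6 members within each line did not change.

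Signs that turned belonged to values that were not called in PC3 or VCaP, and the cause was not tested. In PC3, with library size alone, SLC30A1 was 0.035, MTF1 0.016 and CAMKK1 0.0011, and with upper-quartile factors SLC30A1 was 0.0038. Without the 2 PC3 libraries that stood apart, a setting added after seeing the data, MT1P1 was 0.32, ATOX1 0.032 and CAMKK1 0.030. With 1 library left out, values ranged from −0.17 to 0.045 for SLC30A1, −0.16 to 0.044 for MTF1, −0.40 to 0.25 for MT1P1, −0.32 to 0.0091 for ATOX1 and −0.12 to 0.031 for CAMKK1. In VCaP, NUP93 was 0.025 with upper-quartile factors, 0.0036 in the fit over all 12 libraries and −0.057 to 0.00799 with 1 library left out. The summed level changed by 0.17 in PC3 and 1.65 in VCaP on the log2 scale, 0.26 and 1.63 with library size alone and 0.17 and 1.58 over all rows of the family. In VCaP, 3 counts equal 0.0521 to 0.0598 CPM, so MT1M was not measurable there.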

Other observations

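Family rows under the filter in VCaP also gave values. MT1JP, a pseudogene beside MT1M, had 2.5, 3 and 2.5 counts in VCaP NSI against 7.33, 7.33 and 8.25 in siFOXA1, which did not overlap in CPM. MT1P3 had 0.83, 0.5 and 0.5 counts in NSI against 2, 2 and 2.5 in siFOXA1, also without overlap. MT1H had no count in VCaP NSI and 0.75 count in 1 siFOXA1 library. In PC3, MT1H had 0, 15.3 and 7.79 counts in NSI against 1.89, 5.48 and 2 in siFOXA1. No test was made of these rows within the line, and MT1JP shares 23.8% of its 50-base windows with other places in the genome.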
